A study of Caenorhabditis elegans with 16 samples.

Results

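The glutathione transferases and the glucuronosyltransferases of *C. elegans* were followed through cold exposure in 4 strains. Members were taken by name from the table of counts: every gene whose symbol begins *gst-* or *gstk-* (46 genes, 2 of them *gstk-*) and every gene whose symbol begins *ugt-* (67 genes), which made 113 of 20447 genes, and the families were kept apart throughout. Whole day 1 adults were sequenced as poly-A RNA, with about 1000 animals collected for each library and 2 biological replicates per strain and temperature (16 libraries). The study asked which transcripts of cold-exposed *ets-4* mutants depend on the transcription factors DAF-16 and PQM-1.

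Glutathione transferases couple the tripeptide glutathione to reactive, electrophilic compounds, and glucuronosyltransferases couple a sugar from a UDP-sugar donor to lipophilic small molecules. Both reactions belong to the conjugation phase of detoxification, which makes foreign and endogenous compounds more soluble and ready for export by ABC transporters. In nematodes both families are large, many members are expressed in the intestine, and several, among them *gst-4*, are targets of the stress-response factor SKN-1.

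The strains were wild type (wt, N2), the *ets-4* mutant (allele *rrr16*), and double mutants in which allele *mu86* of *daf-16* or *ok485* of *pqm-1* is added to it. The double mutants are called the *daf-16* strain and the *pqm-1* strain here, both carry the *ets-4* allele too, and both are compared with *ets-4*. All were grown at 20 °C on OP50 bacteria. The 4 °C groups had 2 h of adaptation at 10 °C and then 24 h at 4 °C, and the other groups stayed at 20 °C. In each strain the mutation is in the whole animal, and a library mixes all tissues, so fewer cells of a type and less RNA per cell cannot be told apart.

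Total counts per library ranged from 32046029 to 48770269. Values below are counts scaled to TMM-normalised library size (CPM), and a gene was called when its adjusted p from edgeR's quasi-likelihood test was under 0.05 over the 15775 genes tested. The standard error beside a log2 fold change is approximate and was worked back from the change and the test's F statistic. The *ets-4* transcript was checked first: in the cold, wt had 60.3 and 84.5 CPM, and the 6 mutant libraries lay between 4.35 and 12.8 CPM. In the warm, wt had 26.3 and 25.9 CPM but the 6 libraries labelled as mutants lay between 76.9 and 202 CPM, the opposite direction. The *daf-16* transcript in the cold was at 247 and 226 CPM in *ets-4* but 104.3 and 116 CPM in the *daf-16* strain, and *pqm-1* at 221 and 269 CPM but 149.7 and 142.6 CPM in the *pqm-1* strain. In the warm, *daf-16* overlapped between these groups (163.4 and 184.7 against 106.9 and 174.6 CPM), and *pqm-1* did not (20.4 and 32.8 against 5.98 and 16.2 CPM). The alleles need not remove the transcript, but all statements on mutants at 20 °C are therefore about the libraries labelled so. The summed level of 8 intestine marker genes found in the table ran from 38390 to 48510 CPM at 20 °C and from 21880 to 28470 CPM at 4 °C. Without the vitellogenins *vit-2* and *vit-6* the ranges of the other 6 were 593.7 to 1395 and 300.4 to 909.8 CPM, which overlap, and none of the 6 was at 0. These ranges pool the strains, and within each strain both cold sums lay below both sums at 20 °C. That did not hold for each single gene, and values of *act-5* in wt are given below.

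Of the 113 members, 102 had enough reads to be tested, 40 glutathione transferases and 62 glucuronosyltransferases. The other 11 (*gst-8*, *gst-17*, *gst-18*, *gst-19*, *gst-25*, *gst-37*, *ugt-10*, *ugt-34*, *ugt-35*, *ugt-38* and *ugt-67*) were at or near 0 in most libraries. Among those tested, *gst-23*, *ugt-3*, *ugt-27* and *ugt-32* had enough reads only at 20 °C, and *gst-14*, *ugt-18* and *ugt-33* only at 4 °C, so that a difference in these 7 was built into their passing. The glutathione transferase genes are short, with a median of 740.5 bases of exon, and 26 of 46 lie on chromosome II. The glucuronosyltransferase genes have a median of 1707 exonic bases, and 42 of 67 lie on chromosome V. Exons of 3 glutathione transferases overlap another gene on the same strand and those of 7 a gene on the other strand (3 and 8 among the glucuronosyltransferases), and these, like close copies within a cluster, carry an uncertainty in how reads were assigned.

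Levels were uneven within each family. Per kilobase of exon, the mean over the 16 libraries, both temperatures together, was highest for *gst-1*, a pi-like enzyme, at 374.5 CPM, followed by *gst-7* at 258.4, *gst-24* at 84.5, *gst-13* at 82.1 and *gst-27* at 55.3 CPM per kilobase. Among the glucuronosyltransferases the order was *ugt-64* at 38.0, *ugt-62* at 30.7, *ugt-58* at 23.9, *ugt-22* at 23.4 and *ugt-12* at 17.6 CPM per kilobase. The neighbours *gst-24* and *gst-13* differed by less than their spread over libraries, since *gst-24* alone ran from 1.502 to 153 CPM. The order was not the same at each temperature. *gst-24* was at 3.33 CPM per kilobase at 20 °C, rank 21 of its family, and at 165.6 at 4 °C, rank 3. *ugt-22* was at 43.2 CPM per kilobase at 20 °C, rank 2, and at 3.66 at 4 °C, rank 20. *gst-1*, *gst-7* and *ugt-64* held the same ranks at both. The family medians over all libraries were 2.74 and 2.27 CPM per kilobase. On the CPM scale *gst-1* made up 31.5% of the glutathione transferase sum at 4 °C and *gst-7* 20.3%.

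The summed levels of the families moved apart in the cold. Summed over the family, the glutathione transferases ran from 663.9 to 795.9 CPM in the 8 libraries at 20 °C and from 930.5 to 1169.5 CPM in the 8 at 4 °C. The glucuronosyltransferases ran from 855.0 to 1090.7 CPM at 20 °C and from 338.0 to 510.1 CPM at 4 °C. Neither family's sums overlapped between the temperatures: the first was higher and the second lower in every cold library.

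In wt, 9 of 40 glutathione transferases rose in the cold and 12 fell, beside 12.9% of all tested genes that rose and 17.8% that fell. The family median was -0.41 on the log2 scale, against -0.03 over all genes, and the quartiles of the family were -1.11 and 1.30, so members moved both ways. Without the 2 members whose passing depended on temperature the counts were 9 and 11 of 38. The largest rise was that of *gst-24* (II: 13610443 to 13611366, WBcel235), which had 1.502 and 2.12 CPM at 20 °C and 113 and 107 CPM at 4 °C. This was a 60.8-fold rise (log2 5.93, standard error 0.20, edgeR adjusted p = 6.74e-08), and its share of the family's CPM over all strains went from 0.3% to 11.8%. It was much the largest change of the family, with the next rises between 3.14- and 6.12-fold.

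Those were *gst-34* (log2 2.61), *gst-16* (2.23), *gst-5* (2.16), *gst-35* (2.09), *gst-12* (2.02), *gst-4* (1.71) and *gst-13* (1.65). *gst-4*, whose promoter is the common reporter of SKN-1 activity, had 13.1 and 15.8 CPM at 20 °C and 51.4 and 43.1 CPM at 4 °C in wt. Its groups did not overlap, but its adjusted p of 0.033 from edgeR became 0.071 to 0.15 when any of the 4 wt libraries was left out, and its exons overlap those of *dhs-12*. The call of *gst-5* was likewise lost without wt at 20 °C replicate 1, wt at 20 °C replicate 2 or wt at 4 °C replicate 2 (highest adjusted p = 0.11 from edgeR). A smaller rise was called for *gst-41* (0.62).

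Among the members that passed the filter at both temperatures, the falls were led by *gst-28*, with 11.3 and 10.9 CPM at 20 °C and 1.19 and 1.89 CPM at 4 °C, well apart from each other (log2 -2.85, standard error 0.21, edgeR adjusted p = 3.78e-06). *gst-11* (-2.78) and *gst-9* (-2.54) followed. *gst-42*, which is related to the zeta-class enzymes that isomerise maleylacetoacetate in tyrosine breakdown, had 19.6 and 17.5 CPM at 20 °C and 8.93 and 4.18 CPM at 4 °C (-1.50, standard error 0.41). Its call was lost without wt at 20 °C replicate 1, wt at 20 °C replicate 2 or wt at 4 °C replicate 2, with log2 values from -2.15 to -1.06. *gst-23*, which had enough reads only at 20 °C, had 0.246 and 0.302 CPM there and 0.0291 and 0.0266 CPM at 4 °C, a level of a few reads (log2 -3.16, standard error 0.88). Its call was lost without wt at 20 °C replicate 2 or either cold wt library (highest edgeR adjusted p = 0.099), as was the call of *gst-27* (0.085).

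Several members of known role or high level did not pass. The family's most abundant transcripts were *gst-1*, with a log2 change of 0.43 (standard error 0.32), and *gst-7*, with 0.21 (0.13). *gst-10*, whose product conjugates the lipid peroxidation product 4-hydroxynonenal, had -0.77 (0.55), and the zeta-like *gst-43* had -0.27 (0.21). Of the kappa class, a group of transferases found in mitochondria and peroxisomes in other animals, *gstk-1* fell by 1.15 (standard error 0.24, edgeR adjusted p = 0.0033) and *gstk-2* had 0.34 (0.21) and did not pass.

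In the other family 35 of 62 glucuronosyltransferases fell in wt and 5 rose, beside the same 17.8% and 12.9% of all genes. Without the 5 members whose passing depended on temperature, 33 of 57 fell and 5 rose. The median was -1.38, and it stayed at -1.38 with *ugt-3* set at the bound given below. *ugt-63* (V: 5108180 to 5110772) had 44.7 and 39.3 CPM at 20 °C and 0.291 and 0.613 CPM at 4 °C, among the largest relative falls of the family (91.4-fold, log2 -6.51, standard error 0.43, edgeR adjusted p = 2.44e-06). *ugt-3* had 0.345 and 0.454 CPM at 20 °C and 0 reads in both cold wt libraries, at least 9.57-fold lower with a floor of 3 counts over the group. The summed level of the 8 intestine markers was also lower in every cold library. That of the 6 without vitellogenins was 624.8 and 593.7 CPM at 20 °C and 334 and 563.4 CPM at 4 °C in wt. This sum was lower in the cold within each strain and overlapped between the temperatures only with the strains pooled. Of the 6, *act-5*, the largest, overlapped in wt, with 303 and 253.8 CPM at 20 °C and 213 and 416.9 CPM at 4 °C. The other members were lower in the cold there, *vha-6* from 234 and 225.8 CPM to 74.9 and 83.0 CPM. The part of the intestine in the falls of the glucuronosyltransferases was not tested.

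Abundant members were among those that fell. *ugt-22* had 119 and 79.6 CPM at 20 °C and 10.8 and 9.67 CPM at 4 °C (log2 -3.28, standard error 0.36), and its share of the family's CPM over all strains went from 10.1% to 2.1%. *ugt-47* had 42.7 and 41.4 CPM at 20 °C and 2.85 and 3.06 CPM at 4 °C (-3.83, standard error 0.36). *ugt-12* had 51.8 and 46.8 CPM at 20 °C and 4.36 and 3.70 CPM at 4 °C (-3.61, standard error 0.14, edgeR adjusted p = 8.14e-08). None of these groups overlapped, and the replicates of *ugt-12* and *ugt-47* lay close together. *ugt-17* (-4.52), *ugt-30* (-3.72) and *ugt-41* (-3.29) also fell.

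The 3 members highest per kilobase changed less than those. *ugt-64* fell by 0.69 (standard error 0.09) and *ugt-58* by 0.94 (0.09), while *ugt-62* had -0.68 (0.49) and did not pass. The 5 that rose were *ugt-24* (log2 2.45, standard error 0.35), *ugt-59* (1.44, 0.36), *ugt-39* (1.40, 0.30), *ugt-28* (0.55, 0.11) and *ugt-4* (0.54, 0.18). *ugt-24* had 2.66 and 2.42 CPM at 20 °C and 11.2 and 16.5 CPM at 4 °C, so that its groups lay far apart. The call of *ugt-4* was lost without wt at 20 °C replicate 1, wt at 20 °C replicate 2 or wt at 4 °C replicate 2 (highest edgeR adjusted p = 0.34), and that of *ugt-59* without replicate 2 at 20 °C or at 4 °C (highest 0.13).

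**Figure D1:**
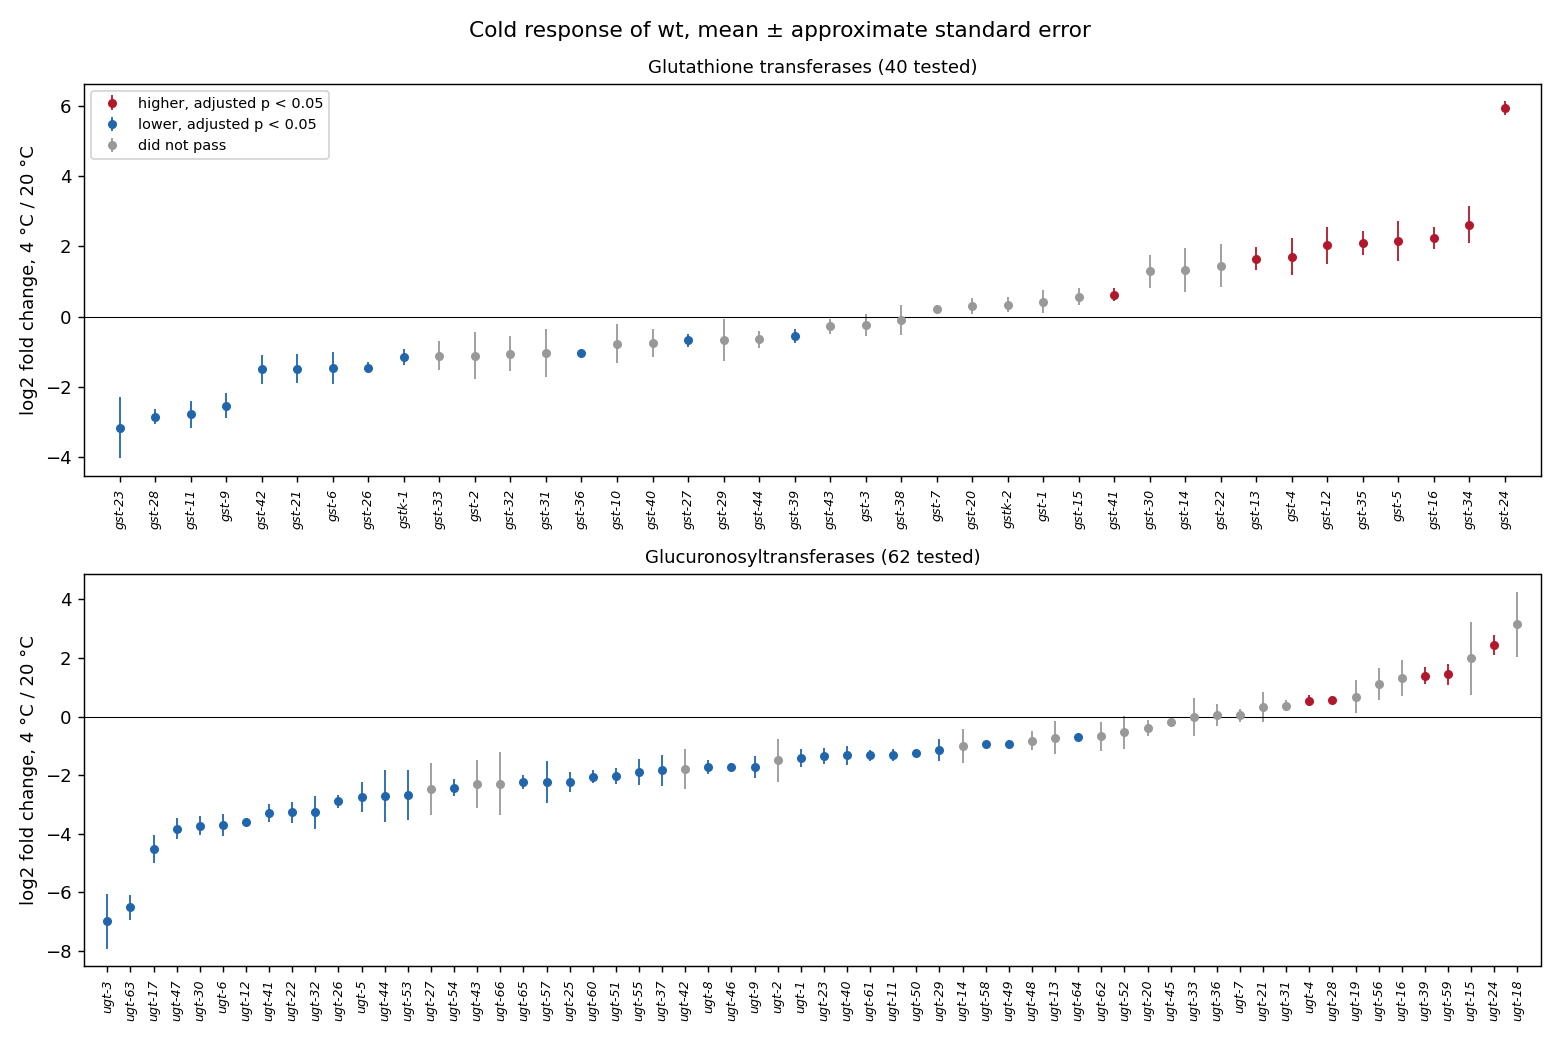
The log2 fold change of wt at 4 °C over 20 °C is plotted on the vertical axis for each of the 40 tested glutathione transferases (top) and 62 glucuronosyltransferases (bottom), ordered by value. Points are fitted values with approximate standard errors from 2 libraries a group; red and blue mark an adjusted p under 0.05 and grey did not pass. Red and blue are 9 and 12 in the upper panel and 5 and 35 in the lower, *gst-24* stands alone at 5.93, and the point of *ugt-3* is a fitted value with 0 reads in the cold.

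These counts came from a fit that shares its spread over all 16 libraries. Without the 6 libraries labelled as mutants at 20 °C, a choice made after the data were seen, wt had 8 glutathione transferases up and 9 down, and 4 glucuronosyltransferases up and 33 down, beside 15.1% and 19.8% of the 15101 genes tested in that fit. Among the wt calls given with values, *gst-4* and *ugt-4* were lost there.

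Neighbouring genes did not always move together. The chromosomes hold 4 clusters of at least 3 glutathione transferases within 20 kb of each other and 4 of glucuronosyltransferases. In the cluster on II at 13608154 to 13630887, 3 of 6 tested members rose in wt (*gst-12*, *gst-16* and *gst-24*), none of the 6 fell, and the median was 1.68. Its members *gst-17*, *gst-18* and *gst-19* had too few reads to be tested. In wt they had 3 and 1, 3 and 1, and 6 and 4 reads at 20 °C, and 0 in both cold libraries. In the cluster on II at 15163817 to 15185389, *gst-34* and *gst-35* rose while *gst-26*, *gst-27*, *gst-28* and *gst-39* fell, with 9 tested and a median of -0.68. *gst-4* rose in its cluster on IV, where the neighbours *gst-2* and *gst-3* had -1.11 and -0.25 and did not pass.

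Among the glucuronosyltransferase clusters, 4 of 6 tested members fell and none rose in that on V at 4887165 to 4911399, which holds *ugt-8*, *ugt-9*, *ugt-11* and *ugt-12*. In the cluster on V at 12790676 to 12830114, *ugt-3*, *ugt-5* and *ugt-6* fell, *ugt-4* rose, and *ugt-18* had a log2 change of 3.15 (standard error 1.12) that did not pass. Over all clusters 12 of 22 clustered glucuronosyltransferases fell in wt, and 23 of 40 of the others. Among the glutathione transferases 6 of 21 clustered members rose and 6 fell, and of the other 19 members 3 rose and 6 fell.

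**Figure D2:**
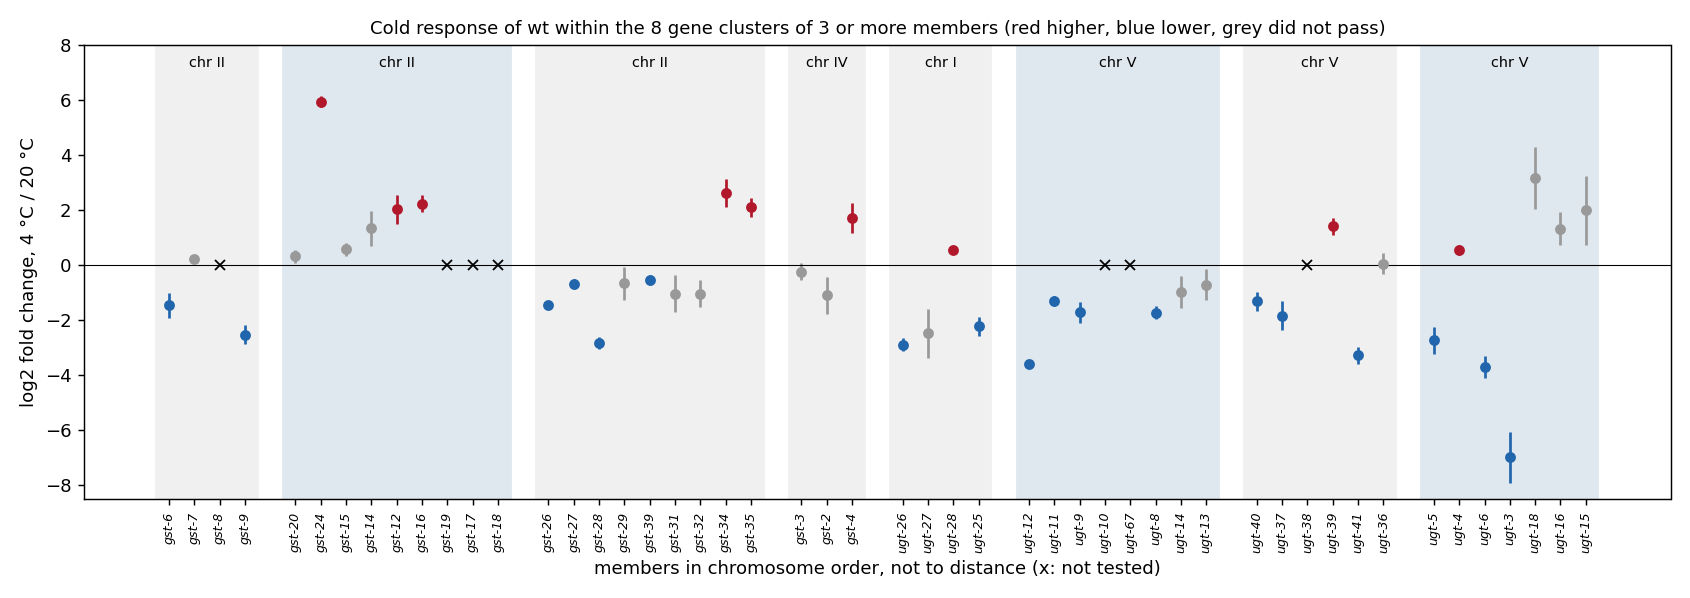
The log2 fold change of wt at 4 °C over 20 °C (vertical axis, with approximate standard errors) is plotted for the members of the 8 clusters, in chromosome order and not to distance. Red rose, blue fell, grey did not pass and crosses were not tested. The second panel from the left, with *gst-24* at 5.93, has a median of 1.68 and no fall among its tested members, while the third holds 2 rises and 4 falls.

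In the other strains, too, most glucuronosyltransferases that were called fell. In *ets-4* the cold calls were 12 up and 12 down of 40 glutathione transferases and 5 up and 36 down of 62 glucuronosyltransferases, beside 15% and 18.3% of all genes up and down. In the *daf-16* strain they were 8 up and 16 down, and 6 up and 33 down, beside 19% and 19.5%. In the *pqm-1* strain they were 9 up and 11 down, and 3 up and 35 down, beside 18% and 19%. In that strain, with its 4 libraries alone in the fit, 37 members were called in all where the shared spread gave 58, beside 13.5% and 37.1% of all genes tested. Leaving out the 7 members whose passing depended on temperature, the glucuronosyltransferases called up and down were 4 and 34 of 57 for *ets-4*, 5 and 31 for the *daf-16* strain and 2 and 32 for the *pqm-1* strain. The glutathione transferases called up and down were then 11 and 12 of 38, 7 and 16, and 8 and 11 in the same order.

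Called up in all 4 strains were *gst-12*, *gst-13*, *gst-16*, *gst-24*, *gst-35*, *gst-41*, *ugt-24* and *ugt-39*, which is 6 of 40 and 2 of 62 beside 9.99% of all genes. Called down in all 4 were 10 of 40 glutathione transferases, *gst-28* and *gst-42* among them, and 30 of 62 glucuronosyltransferases, beside 12.9% of all genes. *ugt-3* and *ugt-32*, which had enough reads only at 20 °C, are 2 of the 30, and without the 7 members of that kind the counts down were 10 of 38 and 28 of 57.

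Some of these calls rested on single libraries. When each of the 16 libraries was left out in turn, all 4 calls held throughout for 2 of the 6 glutathione transferases called up (*gst-16* and *gst-24*), for both glucuronosyltransferases called up, for 4 of the 10 called down (*gst-9*, *gst-26*, *gst-28* and *gst-36*) and for 25 of the 30. Among the 25 are *ugt-3* and *ugt-32*, whose passing of the filter rested on the 20 °C libraries, so that their difference was built in. *gst-42* lost its call in *ets-4* without any of its 4 libraries (edgeR adjusted p = 0.058 to 0.226). In the *pqm-1* strain it lost its call without replicate 1 at 20 °C or replicate 2 at 4 °C (highest 0.101), and in the *daf-16* strain without replicate 2 at 4 °C (0.069). *gst-13* lost its call in the *daf-16* strain without either library at 20 °C or replicate 2 at 4 °C (log2 0.54 to 1.55, highest adjusted p = 0.18 from edgeR) and in the *pqm-1* strain without replicate 2 at 20 °C (0.081). *gst-12* lost its call in the *daf-16* strain without replicate 2 at 20 °C (0.053). The calls of *gst-35* and *gst-41* also depended on a library.

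The level in all 8 cold libraries was above that in all 8 at 20 °C for 8 of 40 glutathione transferases. The same held for 4 of 62 glucuronosyltransferases, beside 12.4% of all genes. The cold level was below for 11 of 40 and 32 of 62, beside 15.2%. *ugt-3*, *ugt-27* and *ugt-32*, which had enough reads only at 20 °C, are among the 32, so their place there was built in.

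*gst-24* ran from 1.502 to 3.17 CPM over the 8 libraries at 20 °C and from 103.9 to 153 CPM over the 8 at 4 °C, and its log2 change lay between 5.38 and 5.93 in the 4 strains. *ugt-63* ran from 36.2 to 55.0 CPM at 20 °C and from 0.168 to 0.776 CPM at 4 °C, with changes between -6.86 and -6.12. *ugt-47* ran from 41.4 to 72.0 CPM and from 1.91 to 5.55 CPM. The temperatures did not overlap for these genes in any strain. *ugt-3* had 0 reads in both cold libraries of the *pqm-1* strain too, at least 21.3-fold lower than at 20 °C with the same floor.

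*gst-4* was less uniform. At 4 °C it had 66.4 and 70.1 CPM in *ets-4*, 15.4 and 45.1 CPM in the *daf-16* strain and 19.4 and 61.1 CPM in the *pqm-1* strain. Replicate 1 of both double mutants lay within the range at 20 °C (13.1 to 23.9 CPM over the 8 libraries), and replicate 2 above it. Its cold change was called in wt and in *ets-4* (1.61, standard error 0.53) and not in the double mutants (0.86, 0.52, and 1.20, 0.52). Like that in wt, the *ets-4* call was lost without any of its 4 libraries (edgeR adjusted p = 0.105 to 0.168). The difference of the *daf-16* strain from *ets-4* at 4 °C did not pass (-1.33, standard error 0.47, edgeR adjusted p = 0.22).

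**Figure D3:**
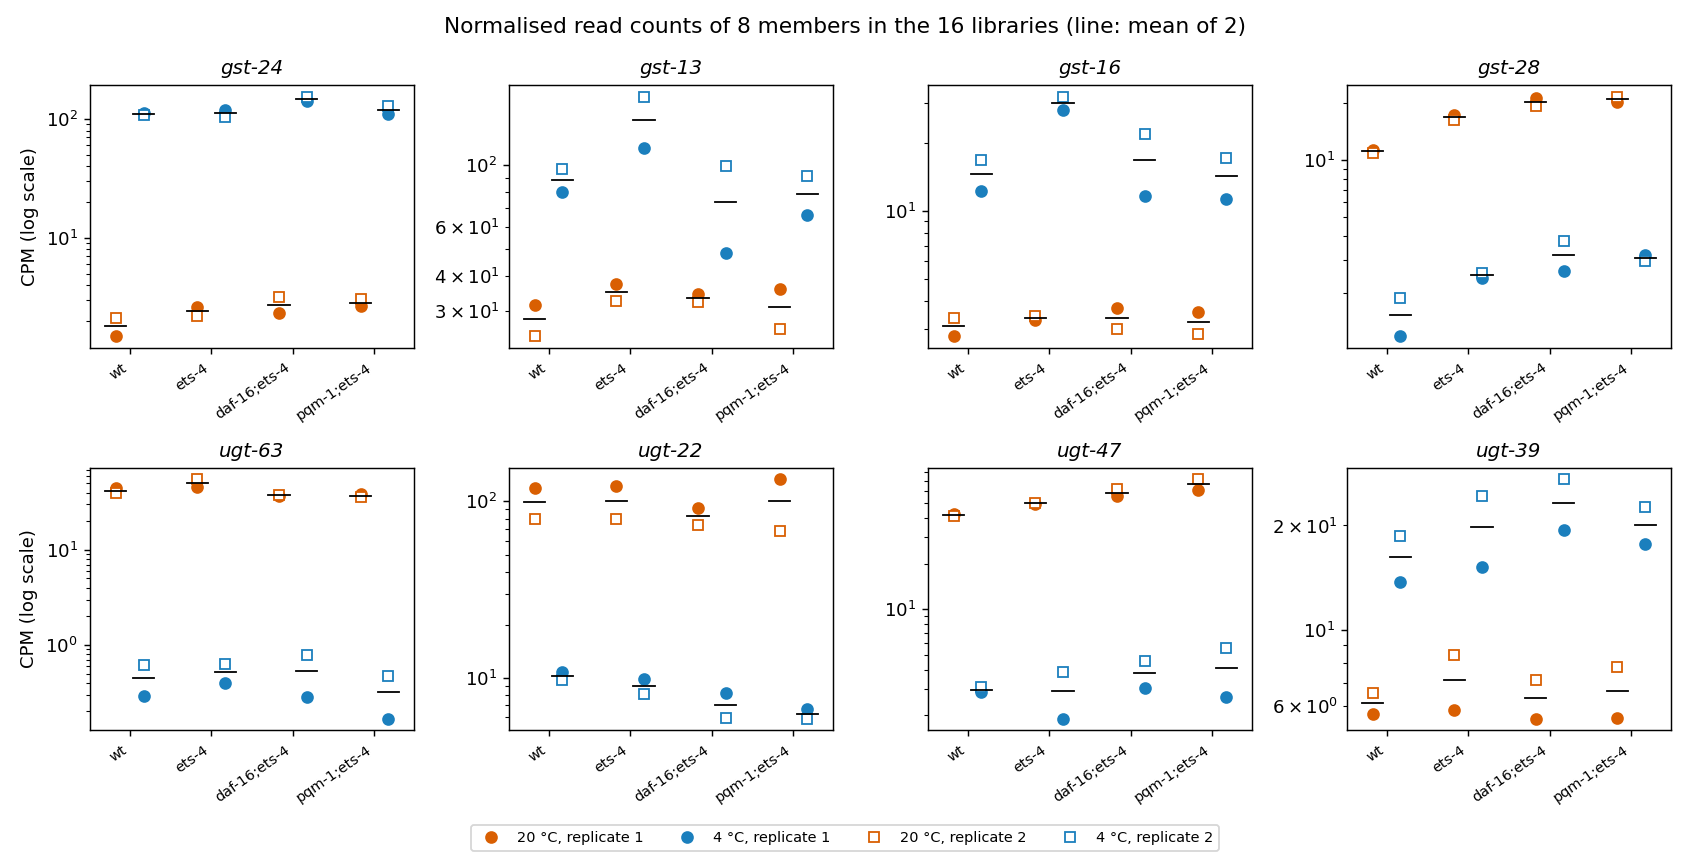
CPM on a log axis are plotted for 8 members in each of the 16 libraries, by strain, with orange for 20 °C and blue for 4 °C, filled circles for replicate 1, open squares for replicate 2 and a line for the mean. Blue lies above orange for *gst-24*, *gst-13*, *gst-16* and *ugt-39* and below it for *gst-28*, *ugt-63*, *ugt-22* and *ugt-47* in every strain; within the blue points of *gst-13* and *gst-16*, *ets-4* is highest.

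Differences between strains at 4 °C were fewer and smaller. These fits carried the replicate number within each temperature as a block. The *ets-4* mutant had 2 glutathione transferases higher than wt and none lower, and 4 glucuronosyltransferases higher and none lower, beside 3.78% of all genes higher and 0.862% lower. *gst-16* had 12.2 and 16.8 CPM in wt and 27.96 and 31.8 CPM in *ets-4* (log2 1.07, standard error 0.17, edgeR adjusted p = 0.0065). *gst-13* had 79.8 and 96.4 CPM in wt and 114 and 175 CPM in *ets-4* (0.68, standard error 0.15, edgeR adjusted p = 0.033). For both genes the *ets-4* libraries lay above the wt libraries without overlap. This was also so for *gst-12*, with 6.51 and 7.19 CPM in wt and 17.9 and 17.5 CPM in *ets-4*, which edgeR did not call. DESeq2 called *gst-12* (1.38, standard error 0.33, adjusted p = 0.0016) and *gst-22* (0.55, 0.19, adjusted p = 0.043) as well.

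The glucuronosyltransferases that were higher in *ets-4* were *ugt-13* (1.15, standard error 0.27), *ugt-8* (0.89, 0.22), *ugt-1* (0.76, 0.19) and *ugt-12* (0.71, 0.13). *ugt-12* had 4.36 and 3.70 CPM in wt and 6.54 and 6.58 CPM in *ets-4*, in each case far under its level at 20 °C. *ugt-13* had 5.58 and 9.94 CPM in wt and 14.1 and 18.9 CPM in *ets-4*. Both were higher in each *ets-4* library than in each wt library.

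Against *ets-4* at 4 °C, the *daf-16* strain had 4 glutathione transferases lower and none higher, and 2 glucuronosyltransferases higher and 1 lower, beside 1.06% of all genes higher and 1.51% lower. The *pqm-1* strain had 3 lower and none higher, and 1 higher and none lower, beside 1.95% higher and 1.1% lower. These comparisons use the same *ets-4* libraries as each other and as the comparison with wt, so their values are set side by side and not counted as separate evidence. *gst-13* had 48.3 and 98.7 CPM in the *daf-16* strain (log2 -1.01, standard error 0.15) and 66.4 and 91.0 CPM in the *pqm-1* strain (-0.86, 0.15). *gst-16* had 11.7 and 21.8 CPM (-0.90, 0.17) and 11.2 and 17.1 CPM (-1.11, 0.17). For both genes every double-mutant library lay below every *ets-4* library.

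*gst-10* had 11.3 and 6.07 CPM in *ets-4*, 5.55 and 2.99 CPM in the *daf-16* strain and 6.22 and 3.65 CPM in the *pqm-1* strain. It was lower than in *ets-4* within each replicate number (-1.02, standard error 0.16, and -0.80, 0.16), but replicate 1 of the *pqm-1* strain overlapped *ets-4* replicate 2. *gst-42* passed in the *daf-16* strain (-0.54, standard error 0.12) and had -0.41 (0.12) in the *pqm-1* strain, which did not pass. *ugt-2* had 1.66 and 5.06 CPM in *ets-4*, 3.36 and 9.06 CPM in the *daf-16* strain and 3.46 and 11.3 CPM in the *pqm-1* strain. It was higher within each replicate number (0.92, standard error 0.14, and 1.11, 0.14) while the groups overlapped. In the *daf-16* strain *ugt-30* was also higher (1.21, 0.27) and *ugt-64* lower (-0.29, 0.06).

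**Figure D4:**
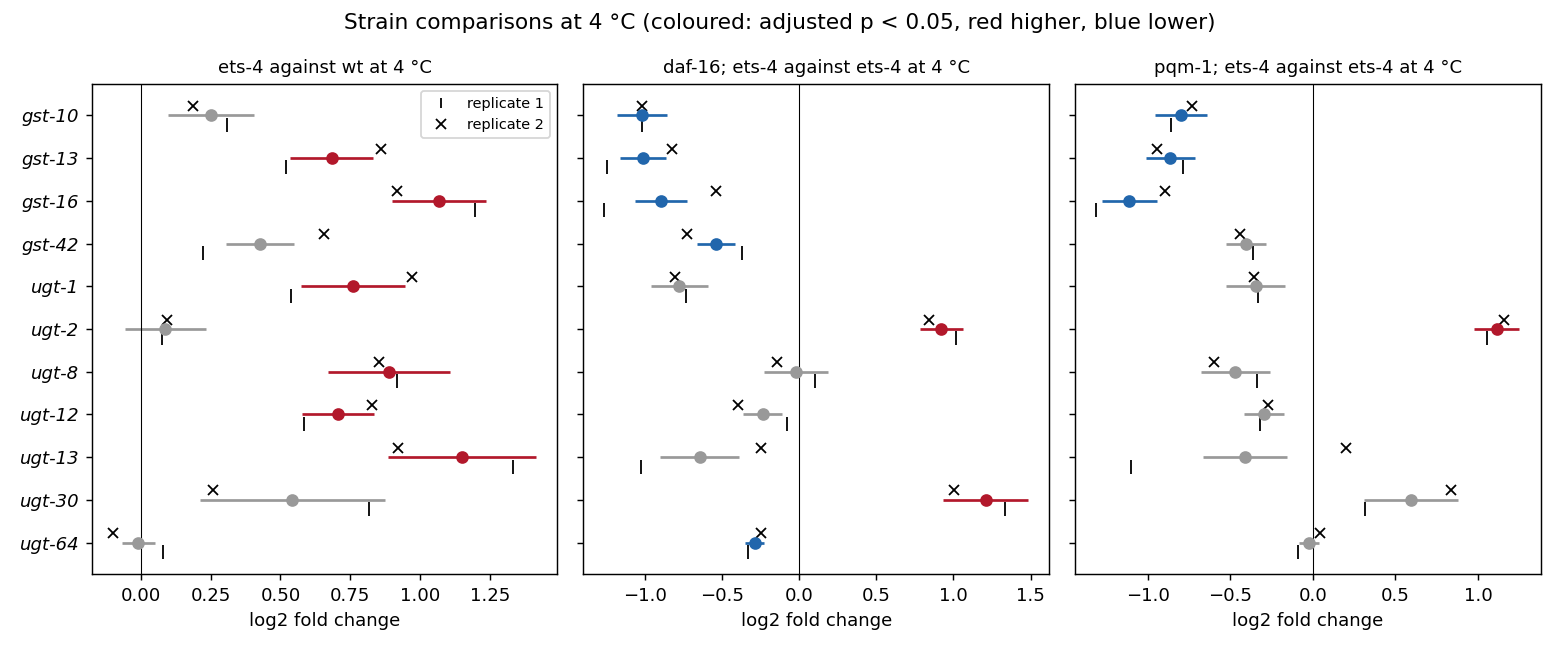
The log2 fold changes of the 3 strain comparisons at 4 °C are plotted on the horizontal axis for the 11 members called in at least 1 of them, as points with approximate standard errors (red higher, blue lower, grey did not pass). Bars and crosses give replicate 1 against replicate 1 and replicate 2 against replicate 2. *gst-13* and *gst-16* are red on the left (0.68 and 1.07) and blue in the middle and on the right, and the comparisons share the *ets-4* libraries.

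These strain calls rested on the replicate block. Without it no member was called in any of the 3 comparisons by edgeR, with 18, 18 and 6 of 102 members at an unadjusted p under 0.05 beside 10.5%, 7.18% and 6.73% of all genes, and DESeq2 without the block called 1, 0 and 0. The adjusted p of *gst-13* was then 0.48, 0.43 and 0.65 and that of *gst-16* 0.22, 0.45 and 0.37. Leaving out a library reduced the 6 calls of *ets-4* against wt to 1 without *ets-4* replicate 1, 1 without wt replicate 2, 2 without *ets-4* replicate 2 and 5 without wt replicate 1. The 7 calls of the *daf-16* strain became 2 without either *ets-4* library, 1 without its own replicate 1 and 3 without its own replicate 2. The 4 calls of the *pqm-1* strain became 1 without *ets-4* replicate 1, 2 without *ets-4* replicate 2, 3 without its own replicate 1 and 4 without its own replicate 2.

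Signs of other tissues moved with these strains and with the replicate number. At 4 °C the summed level of 10 sperm genes was 3.98 and 11.5 CPM in wt, 9.12 and 17.6 CPM in *ets-4*, 15.3 and 44.3 CPM in the *daf-16* strain and 12.5 and 76.0 CPM in the *pqm-1* strain. The 6 intestine markers without vitellogenins had 300.4 and 685.7 CPM in *ets-4*, 334.1 and 732.2 CPM and 478.4 and 909.8 CPM in the double mutants. Replicate 2 was higher than replicate 1 in each. The 6 germline genes went the other way, with 3980 and 3554 CPM in *ets-4*. They had 3714 and 3351 CPM in the *daf-16* strain and 3529 and 3194 CPM in the *pqm-1* strain. The part of these tissues in the differences of *gst-10*, *gst-13*, *gst-16* and *ugt-2* was not tested.

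At 20 °C the libraries labelled *ets-4* had no glutathione transferase and 2 glucuronosyltransferases called against wt, both higher, beside 1.6% of all genes higher and 0.406% lower. *ugt-54* had 1.95 and 2.14 CPM in wt and 3.69 and 4.67 CPM in the libraries labelled *ets-4* (1.02, standard error 0.20), and *ugt-64* was higher by 0.26 (0.06). *gst-13* and *gst-16*, which differed at 4 °C, had 0.33 (0.16) and 0.13 (0.20) at 20 °C and did not pass.

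The libraries labelled as the *daf-16* strain had 2 glutathione transferases higher and none lower than those labelled *ets-4*, and 2 glucuronosyltransferases higher and 1 lower, beside 6.82% and 3.37% of all genes. *gst-20* had 8.18 and 5.72 CPM in the libraries labelled *ets-4* and 13.6 and 9.20 CPM in those of the double mutant (0.71, standard error 0.12), and *gst-15* had 1.45 and 1.58 against 2.69 and 2.66 CPM (0.82, 0.23). Those labelled as the *pqm-1* strain had 2 higher and 1 lower, and 9 glucuronosyltransferases higher and 2 lower, beside 11.1% and 7.31%. *ugt-66* had 1.70 and 5.48 CPM in the libraries labelled *ets-4* and 3.96 and 24.0 CPM in those of the *pqm-1* strain (1.75, standard error 0.35), with replicate 2 higher in both. *ugt-30* and *ugt-31* were higher and *ugt-63* lower in both double mutants.

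Marker sums of other tissues moved with these labels too. At 20 °C the 10 sperm genes summed to 3.72 and 16.6 CPM in wt and 11.2 and 20.95 CPM in the libraries labelled *ets-4*, against 82.1 and 104.8 CPM in those of the *daf-16* strain and 38.2 and 166.2 CPM in those of the *pqm-1* strain. The 3 muscle genes summed to 2605 and 2550 CPM in the libraries labelled *ets-4*, 2912 and 3887 CPM in the *daf-16* strain and 3455 and 4344 CPM in the *pqm-1* strain. The 4 hypodermis genes had 1238 and 1345, 2056 and 2034, and 1784 and 1972 CPM. Each of these sums was higher in every double-mutant library than in those labelled *ets-4*. Most of the hypodermis sum was *col-19*, with 1122 and 1237 CPM in the libraries labelled *ets-4*. Its member *lin-26* was lower in the double mutants, at 87.8 to 105.4 CPM against 114.6 and 107.5 CPM. The sums of 6 germline and 9 embryo genes were lower in every double-mutant library. The germline genes had 3871 and 3403 CPM in the libraries labelled *ets-4*. They had 3383 and 2947 CPM in the *daf-16* strain and 3296 and 2534 CPM in the *pqm-1* strain. The embryo genes had 154.3 and 145.6, 127.5 and 135.5, and 129.6 and 110.6 CPM. Most of the embryo sum was *pal-1*, with 134.5 and 127.2 CPM in the libraries labelled *ets-4*. Not all of its members followed it, as *nob-1* had 2.59 and 2.74, 2.53 and 3.88, and 2.40 and 3.50 CPM. The part of these tissues in the differences at 20 °C was not tested.

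No member was called in these 3 comparisons at 20 °C without the block by edgeR, with 8 of 102 members at an unadjusted p under 0.05 in each beside 7.82%, 12.9% and 17.9% of all genes, and DESeq2 without the block called 0, 0 and 2. The 2 calls of *ets-4* became 1 without wt replicate 1 and 0 without any other library. The 5 of the *daf-16* strain became 4 without its own replicate 2 and 0 without any other library. The 14 of the *pqm-1* strain became 16 without its own replicate 1, 3 without *ets-4* replicate 1 and 0 without *ets-4* replicate 2 or its own replicate 2.

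Whether the cold response itself differed between strains was tested as an interaction. EdgeR called no member when *ets-4* was set against wt or when either the *daf-16* or the *pqm-1* strain was set against *ets-4*, beside 0.00634%, 0.0571% and 0.114% of all genes in either direction. At an unadjusted p under 0.05 there were 7, 17 and 19 of 102 members, beside 3.9%, 7.59% and 9.05% of all genes. DESeq2 called 0, 2 and 0, the 2 being *gst-10* (-1.11, standard error 0.28, adjusted p = 0.022) and *gst-13* (-0.94, 0.20, adjusted p = 0.0020), both with a lower cold response in the *daf-16* strain. By edgeR these had -1.12 (standard error 0.22, adjusted p = 0.15) and -0.95 (0.21, adjusted p = 0.27). For *gst-16* edgeR gave 0.94 (standard error 0.26, adjusted p = 0.74) for *ets-4* against wt and -1.04 (0.26, adjusted p = 0.19) for the *pqm-1* strain against *ets-4*. The interactions use the libraries labelled as mutants at 20 °C.

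Of 29 tested genes around the same chemistry, 9 rose and 3 fell in wt in the cold, beside 12.9% and 17.8% of all genes. The regulators *skn-1* (log2 0.47, standard error 0.11), its repressor *wdr-23* (0.54, 0.13) and the mediator subunit *mdt-15* (0.59, 0.14) rose, and the nuclear receptor *nhr-8*, which acts in xenobiotic and sterol responses, fell by 2.10 (0.21). The ABC exporters *mrp-2*, *mrp-7*, *pgp-3*, *pgp-6* and *pgp-8* rose, by 0.44 to 1.86. *gcs-1*, which catalyses the rate-limiting step of glutathione synthesis, had 139 and 134.7 CPM at 20 °C and 148 and 145 CPM at 4 °C (0.10, 0.07) and did not pass. *gss-1* (-0.16) and *gsr-1* (0.17) of glutathione synthesis and recycling and *sqv-4* (-0.05), which makes UDP-glucuronate, did not pass either.

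The omega-class transferases, whose symbols fall outside the naming rule, also moved both ways. *gsto-1* had 5.59 and 5.54 CPM at 20 °C and 0.523 and 0.586 CPM at 4 °C in wt (-3.32, standard error 0.97). *gsto-2* fell (-3.27) from levels of at most 0.172 CPM in wt, and *gsto-3* rose (0.69, 0.18). The fall of *gsto-2* in wt was one from 7 and 6 reads to 1 and 0. Over all strains it reached 0.340 CPM at 20 °C and at most 0.173 CPM at 4 °C. Its passing of the filter rested on the 20 °C libraries, since no cold library had more than 7 reads, so its place among the 3 falls in wt was built in. Among the mutants, 11 of the 29 genes rose and 2 fell in *ets-4*, beside 15% and 18.3% of all genes. The *daf-16* strain had 10 and 4, beside 19% and 19.5%, and the *pqm-1* strain 11 and 2, beside 18% and 19%. At 4 °C the exporter gene *mrp-3* was higher in *ets-4* than in wt, and none of the 29 was called in either double mutant against *ets-4*. At 20 °C none was called for the libraries labelled *ets-4*, *mrp-7* was lower in the *daf-16* strain, and in the *pqm-1* strain *mrp-3*, *pgp-14* and *gsto-1* were higher and *sqv-4* lower.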

How the data were processed

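Poly-A RNA of whole day 1 adults was sequenced by the authors from 2 biological replicates of each of 4 strains at 20 °C and 4 °C. The authors mapped reads to WBcel235 with STAR, kept uniquely mapped reads, and deposited unnormalised counts of reads over exons of protein-coding genes; the annotation release and the use of strand in counting are not given in the sources used here. Strains, temperatures and replicate numbers came from the labels, and gene symbols, positions and exon lengths from the Ensembl release 115 annotation of WBcel235 (20159 of 20447 genes found).

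Counts were tested with edgeR 4.0.16 (R 4.3.3; TMM, filterByExpr, robust quasi-likelihood, Benjamini-Hochberg adjustment over 15775 genes) in fits of all 16 libraries. Cold responses were fitted without a block. Strain comparisons carried the replicate number within temperature as a block, as the study compares strains within replicate numbers. Deviations from group means of same-numbered libraries correlated at 0.372 to 0.595 between strains at 4 °C and 0.292 to 0.559 at 20 °C, and at 0.192 to 0.662 over the 16 pairs across temperatures, which the cold fit without a block does not use. With 2 replicates a group, p-values measure the spread between these libraries. Total counts of 32046029 to 48770269 limit the precision of members with few reads. Fits were also run on simulated counts in which far fewer genes changed than in these data, and no statement here rests on them.

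Members and lists were chosen with earlier results of these data known. Members named with values were those of known role, the 5 of each family highest per kilobase, and the 5 largest rises and falls of each comparison; *gst-41* and the cluster neighbours *gst-2* and *gst-3* were given values after those were seen. Alternatives were RLE scaling, DESeq2 1.42.0, no filter, the block or its absence, other sets of libraries, the study's 2-fold rule with a pseudocount of 8, and leaving out each library. Promoter motifs were not analysed here.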

Additional observations from a re-analysis of the deposited data

Results flagged for a closer look

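The *ets-4* transcript differed between strains in opposite directions at the temperatures: its cold response was 1.47 in wt and -4.16 in the libraries labelled *ets-4*, a difference of -5.533 (standard error 0.44, edgeR adjusted p = 0.024). All cold responses of the mutants and all interactions use the 20 °C libraries behind this value.

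*gst-15* moved apart in the *daf-16* strain, with a cold response of -0.99 (called lower) against 0.48 in *ets-4* (not called) and a difference of -1.466 (standard error 0.33). Seen by temperature, the double mutant was lower than *ets-4* at 4 °C in both replicates (1.31 and 1.39 against 2.11 and 2.13 CPM, not called) and higher at 20 °C (called). The difference did not pass (edgeR adjusted p = 0.23).

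*gstk-1* in the *pqm-1* strain was lower than *ets-4* in both replicates at 20 °C (-0.45, called) and higher at 4 °C (0.14, not called), a difference of 0.591 (standard error 0.17, edgeR adjusted p = 0.29). *ugt-8* in the same strain was higher at 20 °C (0.59, called) and lower at 4 °C (-0.47, not called), a difference of -1.062 (standard error 0.28, edgeR adjusted p = 0.22). Neither difference passed.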

How the results depend on the processing

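Of 145 values named for single genes, none changed direction under any alternative. All 145 had passed in the main fit, and the largest rises and falls were taken only where both replicates agreed. A change of direction was therefore unlikely from the start. Of 1474 checks of these values, 1133 kept the call and 341 lost it. The losses include all 34 checks without the replicate block. On leaving out 1 library 197 checks lost the call and 383 kept it. The cold calls of members were within 1.5 times of 61 (wt), 65 (*ets-4*), 63 and 58 (the *daf-16* and *pqm-1* strains) under every alternative except 37 for the *pqm-1* strain with its 4 libraries alone, and ranged over 44 to 50, 45 to 52, 48 to 55 and 46 to 55 when a library was left out. The replicate block moved them to 74, 73, 70 and 72. For the strain comparisons at 4 °C (6, 7 and 4 members called), the fit without the replicate block called 0 in each, DESeq2 called 10 for *ets-4* against wt, and the 2-fold rule called 1 and 0 for the *daf-16* and *pqm-1* strains; leaving out a library gave 1 to 5, 1 to 3 and 1 to 4. At 20 °C (2, 5 and 14), the fit without the block called 0 in each, DESeq2 7 and 3 for the first and second, no filter 5 for the first, the 8 libraries at 20 °C alone 2 for the second, and the 2-fold rule 0, 0 and 1; leaving out a library gave 0 to 1, 0 to 4 and 0 to 16. Interactions stayed at 0 calls except 2 by DESeq2 for the *daf-16* strain, and gave 0 to 0, 0 to 1 and 0 to 1 without a library (1 without replicate 2 of the *daf-16* strain at 20 °C or at 4 °C, and 1 without replicate 2 of the *pqm-1* strain at 4 °C). The causes were not tested. Members under 1 CPM rest on few reads, and close gene copies and overlapping exons could share reads.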

Other observations

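Members outside the comparisons above also had values of their own. *gst-22* had log2 cold changes of 1.45 (standard error 0.62, not called) in wt and 2.39, 2.21 and 2.34 in *ets-4*, the *daf-16* strain and the *pqm-1* strain, called by edgeR with all 16 libraries, and at 4 °C replicate 2 was the higher library in each strain (12.2 and 20.7 CPM in wt, 13.8 and 40.4 CPM in *ets-4*). Each of the 3 calls was lost without either library at 20 °C or without replicate 2 at 4 °C (highest adjusted p = 0.139, 0.177 and 0.079 from edgeR), and the *ets-4* value then ran from 1.41 to 2.95. *ugt-66* was called lower in the cold in each mutant (-3.21, -3.01 and -4.87, the last from -5.63 to -3.05 when one of its libraries was left out) and had -2.29 (standard error 1.07, not called) in wt. *ugt-53* had 10.4 and 7.03 CPM in wt at 20 °C and 1.66 and 1.04 CPM at 4 °C. *gst-34* had log2 cold changes of 2.61 and 2.79 in wt and *ets-4* (called) and of 0.52 and 0.98 in the *daf-16* and *pqm-1* strains (not called); the differences from *ets-4* did not pass.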
